A study of Mus musculus with 16 samples.

Results

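The genes described here are the 82 cytosolic ribosomal protein genes of mouse liver, out of 30199 rows of the count table and 15263 rows tested. They were chosen by symbol: a name of the form Rps or Rpl with a number, or Rplp0, Rplp1, Rplp2 or Rpsa, averaging 10 or more normalized counts across the 16 livers. The symbol rule alone gave 84 genes. Rpl3l and Rpl39l, with means of 4.08 and 1.86, stayed under the minimum, while Rpl24 (10.2) and Rpl32l (10.6) were just above it. The 82 genes are 31 of the small subunit, 43 of the large subunit, 3 of the stalk and 5 paralogs (Rps27l, Rpl22l1, Rps4l, Rpl7l1 and Rpl32l). Of these paralogs, GENCODE M21 lists Rps4l as a transcribed processed pseudogene and Rpl32l as a processed pseudogene. They are counted as genes and paralogs here by symbol only.

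Polyadenylated RNA was sequenced from pieces of liver, labelled as mainly hepatocyte, of female mice aged 5 months. The livers were Ncoa5+/-Tip30+/- (heterozygous for a deletion of both genes), Ncoa5+/- (Ncoa5+/-Tip30+/+), Tip30+/- (Ncoa5+/+Tip30+/-) and WT (Ncoa5+/+Tip30+/+), with 4 mice and 4 libraries each. The Ncoa5 protein is a nuclear receptor coregulator, and the Tip30 protein is encoded by Htatip2. The labels name no tissue-specific driver of either deletion and no mouse strain. Libraries held 24740706 to 37939978 reads in genes. Hepatocyte markers were high throughout, with 1289684 to 2291905 normalized counts of Alb, the albumin gene. Htatip2 lay at 837 to 1088 in Ncoa5+/-Tip30+/- livers, 2066 to 2910 in Ncoa5+/- livers, 685 to 986 in Tip30+/- livers and 1835 to 2209 in WT livers. Ncoa5 counts overlapped between genotypes, at 369 to 424, 339 to 411, 382 to 450 and 380 to 480 in the same order. Ncoa5 counts therefore did not separate the genotypes, and the labels do not say which part of the gene was deleted.

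Ribosomal proteins assemble with ribosomal RNA into the small subunit, which decodes mRNA, and the large subunit, which joins amino acids. Most are needed in equal numbers per ribosome, and their mRNAs are among the most abundant of any cell. Many of these mRNAs begin with a C followed by a run of pyrimidines, the 5′ TOP motif, through which mTORC1 signalling controls their translation. Some ribosomal proteins act outside the ribosome: Rpl5 and Rpl11, with 5S rRNA, bind Mdm2, the ubiquitin ligase that restrains p53.

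The sequences around the start sites of 6 genes are printed to show where a pyrimidine tract is present or absent near the start. They are the 2 genes that passed a test (Rps27l and Rps19), Rps27, the paralog Rpl22l1 and 2 abundant members with long runs. Each is the RefSeq start (GRCm38.p6) with 15 bases before it and 15 from it on, 5′ to 3′ on the transcript strand, with the tract in capitals.
Rps27l, chr9:66946071-66946100, plus strand: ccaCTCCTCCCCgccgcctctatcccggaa
Rps27, chr3:90213634-90213663, minus strand: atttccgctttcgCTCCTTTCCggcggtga
Rps19, chr7:24884577-24884606, plus strand: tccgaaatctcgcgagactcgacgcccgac
Rpl22l1, chr3:28805493-28805522, plus strand: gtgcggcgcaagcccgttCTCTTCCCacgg
Rps6, chr4:86857353-86857382, minus strand: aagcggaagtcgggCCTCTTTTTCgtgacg
Rpl15, chr14:18270972-18271001, minus strand: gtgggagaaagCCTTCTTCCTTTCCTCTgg
Rps19 held no such run at its listed start, and Rpl15 held the longest of the 6, at 17 bases. With the first base of the listed mRNA counted as 1, the run of Rps27l began at -12 and ended before the start. It therefore lies outside that mRNA. The runs began at -4 in Rpl15, -2 in Rps27, -1 in Rps6 and 4 in Rpl22l1. A run in this window is therefore not by itself a 5′ TOP motif. The run searched was a C followed by at least 4 C or T on the transcript strand, anywhere in these 30 bases. It was present in 37 of the 61 members that have a RefSeq promoter (60.7%), against 36.4% of 27025 listed promoters. With at least 6 C or T after the first C the shares were 47.5% and 14%. CCGGAAG, searched on both strands over 300 bases, was present in 24 of 61 members (39.3%), against 9.12% of all promoters. On the other strand it reads CTTCCGG, so its C and T letters can overlap the tract. The p53 half-site consensus, searched over the same 300 bases on both strands, was found in 3 of 61 members (4.92%), against 8.37% of all promoters, and not in the 300 bases of Rps27l.

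Across the 16 livers together the ribosomal protein genes took 1.45% to 2.14% of all reads. The share was 1.88%, 2.14%, 1.67% and 1.61% in the Ncoa5+/-Tip30+/- livers 1 to 4, and 1.85%, 1.83%, 1.6% and 1.57% in the Ncoa5+/- livers. It was 1.45%, 1.55%, 1.61% and 1.46% in Tip30+/- livers and 1.61%, 1.81%, 1.71% and 1.63% in WT livers. Both groups with an Ncoa5 deletion spanned the WT range, and the Tip30+/- livers reached up only to the lowest WT value. Group means were 1.82% ± 0.240, 1.71% ± 0.148 and 1.52% ± 0.0763 in the 3 mutant groups, in the same order, and 1.69% ± 0.0909 in WT livers (SD, n = 4 each). Counting error was far smaller: the Wilson 95% interval was 1.88% to 1.89% for Ncoa5+/-Tip30+/- liver 1. These intervals cover counting error only.

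**Figure D1:**
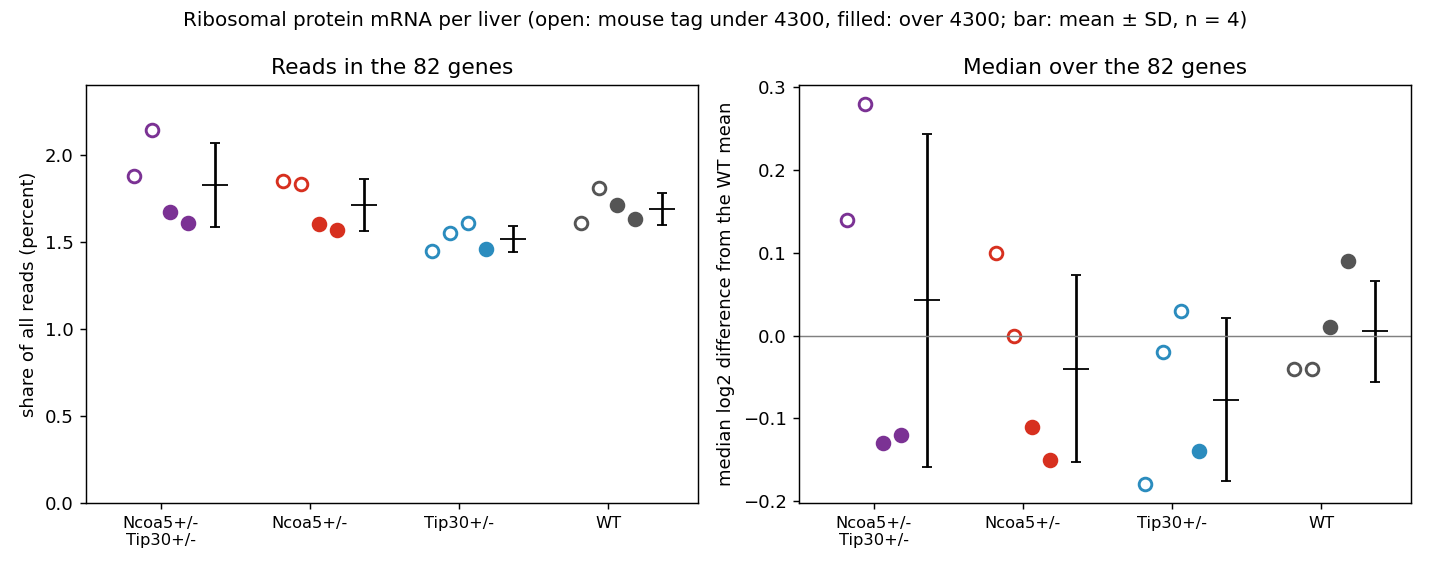
Share of reads in the 82 ribosomal protein genes (left, percent) and the median over the genes of the log2 difference from the WT mean (right), 1 point per liver, with mean ± SD (n = 4). Open points are mice with tags under 4300. Both Ncoa5+/-Tip30+/- livers with such tags, at 1.88% and 2.14%, lie above the 2 with higher tags, at 1.67% and 1.61%.

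The genes moved together from liver to liver within genotypes. The median over members of the log2 difference from the WT mean was 0.14, 0.28, -0.13 and -0.12 in Ncoa5+/-Tip30+/- livers, and 0.10, 0.00, -0.11 and -0.15 in Ncoa5+/- livers. It was -0.18, -0.02, 0.03 and -0.14 in Tip30+/- livers and -0.04, -0.04, 0.01 and 0.09 in WT livers. In the 2 groups with an Ncoa5 deletion, livers 1 and 2 stood above livers 3 and 4. These are also the mice with tags under 4300, a number in the sample titles whose meaning the labels do not give. Large and small subunit genes had like medians, for example 0.27 and 0.28 in Ncoa5+/-Tip30+/- liver 2. After the group means were removed, the median correlation between 2 members with a mean of at least 1000 counts was 0.70 over 16 livers (75 genes), against 0.08 between 2 of all 3888 genes at that level. This is a description: the points share their library and size factor. Rpl11 followed the median of the other members closely (r = 0.98), and Rpl19 and Rpl26 least (r = 0.28 each).

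Levels per kilobase of transcript were close for most members. Over the 73 genes that are not paralogs and share at most 30% of their exon bases with another gene, the mean normalized count per kilobase had a median of 8320, and its 10th and 90th percentiles were 4250 and 14400. The 5 highest were Rplp1 (25323 per kb), an acidic stalk protein, then Rpl10 (20567 per kb), Rpl41 (20095 per kb), Rps2 (17873 per kb) and Rps15 (14955 per kb). The 5 lowest were Rpl24 (15 per kb), Rpl32l (26.5 per kb), Rpl13a (130 per kb), Rpl22l1 (295 per kb) and Rpl23a (411 per kb). Exon overlap with other annotated genes was above 30% for 4 members. It was 47.0% for Rpl24 and 35.4% for Rpl13a, with a gene on the same strand, and 66.2% for Rpl35 and 62.3% for Rpl23a, with a gene on the opposite strand. The labels describe no strand marking, so the low counts of these 4 genes are uncertain as levels.

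**Figure D2:**
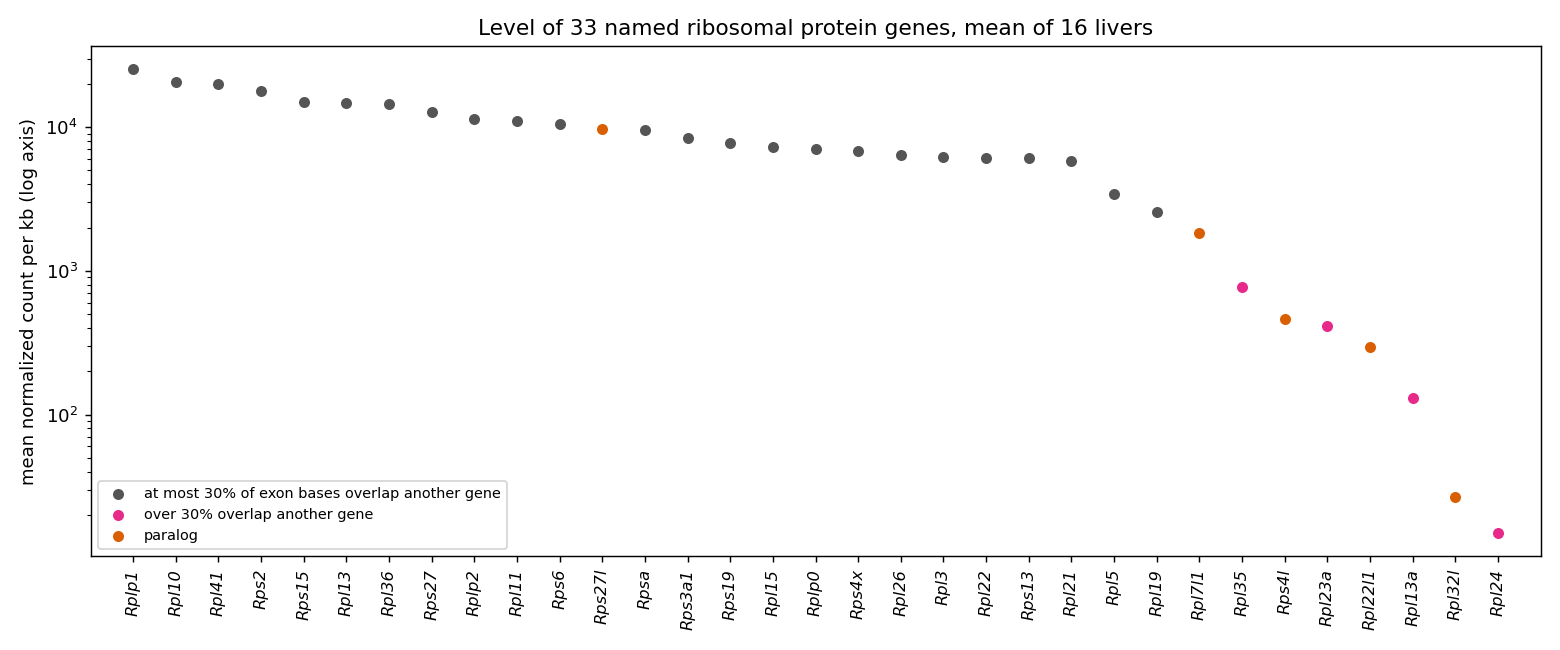
Mean normalized count per kilobase of transcript over 16 livers (log axis) for the 33 of the 82 genes named in the text, in falling order. The paralog Rps27l lies among the subunit genes, whereas Rps4l, Rpl22l1 and Rpl32l and the 4 members with over 30% overlap lie at the low end.

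Sequence shared with processed pseudogenes also limits single values. In windows of 100 bases, 7 of the 82 transcripts shared none with another annotated gene, 32 shared over 50% of their windows, and the highest share was 98.4%, for Rps27. Rps27l and Rpl22 shared no window with any other gene, Rps19 shared 41.4% and Rpl22l1 40.6%. Rows of ribosomal protein pseudogenes added a further 0.227% to 0.313% of reads per liver. Those named for Rps2 summed to 39166 counts on average, against 17837 for Rps2 itself.

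Among the paralogs, Rps27l was higher in every liver with an Ncoa5 deletion than in every liver without one. Rps27l (ENSMUSG00000036781, GRCm38 chromosome 9, 66946086 to 66949516, plus strand) encodes a close relative of the small-subunit protein Rps27, and is known from human and mouse cells as a gene induced by p53. Its normalized counts were 6354, 7904, 6157 and 4604 in Ncoa5+/-Tip30+/- livers, against 3310, 3160, 3757 and 4260 in WT livers. They were 6664, 4851, 5928 and 5140 in Ncoa5+/- livers and 3440, 3904, 4303 and 3821 in Tip30+/- livers. The lowest liver with an Ncoa5 deletion stood at 4604 and the highest without one at 4303. Group means were 6255 ± 1350, 5646 ± 818 and 3867 ± 354 in the Ncoa5+/-Tip30+/-, Ncoa5+/- and Tip30+/- livers, and 3622 ± 495 in WT livers (SD, n = 4 each).

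Rps27l rose 1.71-fold in Ncoa5+/-Tip30+/- livers against WT livers (log2 0.77 ± 0.15 SE, limma adjusted p = 0.0132 over all genes). In Ncoa5+/- livers the log2 change was 0.64 ± 0.15 and did not pass (adjusted p = 0.0693), and in Tip30+/- livers it was 0.10 ± 0.15 (adjusted p = 0.907). Over the 8 livers with an Ncoa5 deletion, against the 8 without one, Rps27l rose 1.58-fold (log2 0.66 ± 0.11, adjusted p = 0.00142). The comparisons with WT share the WT livers.

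The call for Ncoa5+/-Tip30+/- livers was lost in limma without Ncoa5+/-Tip30+/- liver 2 (log2 0.65, adjusted p = 0.0564) and without WT liver 1 (log2 0.73, adjusted p = 0.0514). Among mice with tags under 4300 the log2 change was 1.13 (adjusted p = 0.00616), and among those with higher tags it was 0.41 (adjusted p = 0.331). For the 8 livers against 8, the change was 0.84 (adjusted p = 0.00343) within the lower tags and 0.47 (adjusted p = 0.119) within the higher ones.

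Rps27 (chromosome 3, 90212522 to 90213651), the partner of Rps27l, showed no such separation. Its counts were 4531, 4882, 3900 and 3806 in Ncoa5+/-Tip30+/- livers, 4470, 3860, 4138 and 4355 in Ncoa5+/- livers and 4458, 4749, 4566 and 4342 in Tip30+/- livers. WT livers had 3830, 4004, 4882 and 5612, which spans every mutant liver but one. The log2 change was -0.09 ± 0.12 in Ncoa5+/-Tip30+/- livers and -0.11 ± 0.12 in Ncoa5+/- livers, with adjusted p = 0.699 and 0.836 in limma. The ratio of Rps27l to Rps27 counts was therefore 1.40, 1.62, 1.58 and 1.21 in Ncoa5+/-Tip30+/- livers and 1.49, 1.26, 1.43 and 1.18 in Ncoa5+/- livers. It was 0.772, 0.822, 0.942 and 0.880 in Tip30+/- livers and 0.864, 0.789, 0.770 and 0.759 in WT livers. All 8 ratios with an Ncoa5 deletion lay above 1, and all 8 without it lay below 1. The log2 ratio differed by 0.75 between the means of the 8 livers with and the 8 without the deletion.

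**Figure D3:**
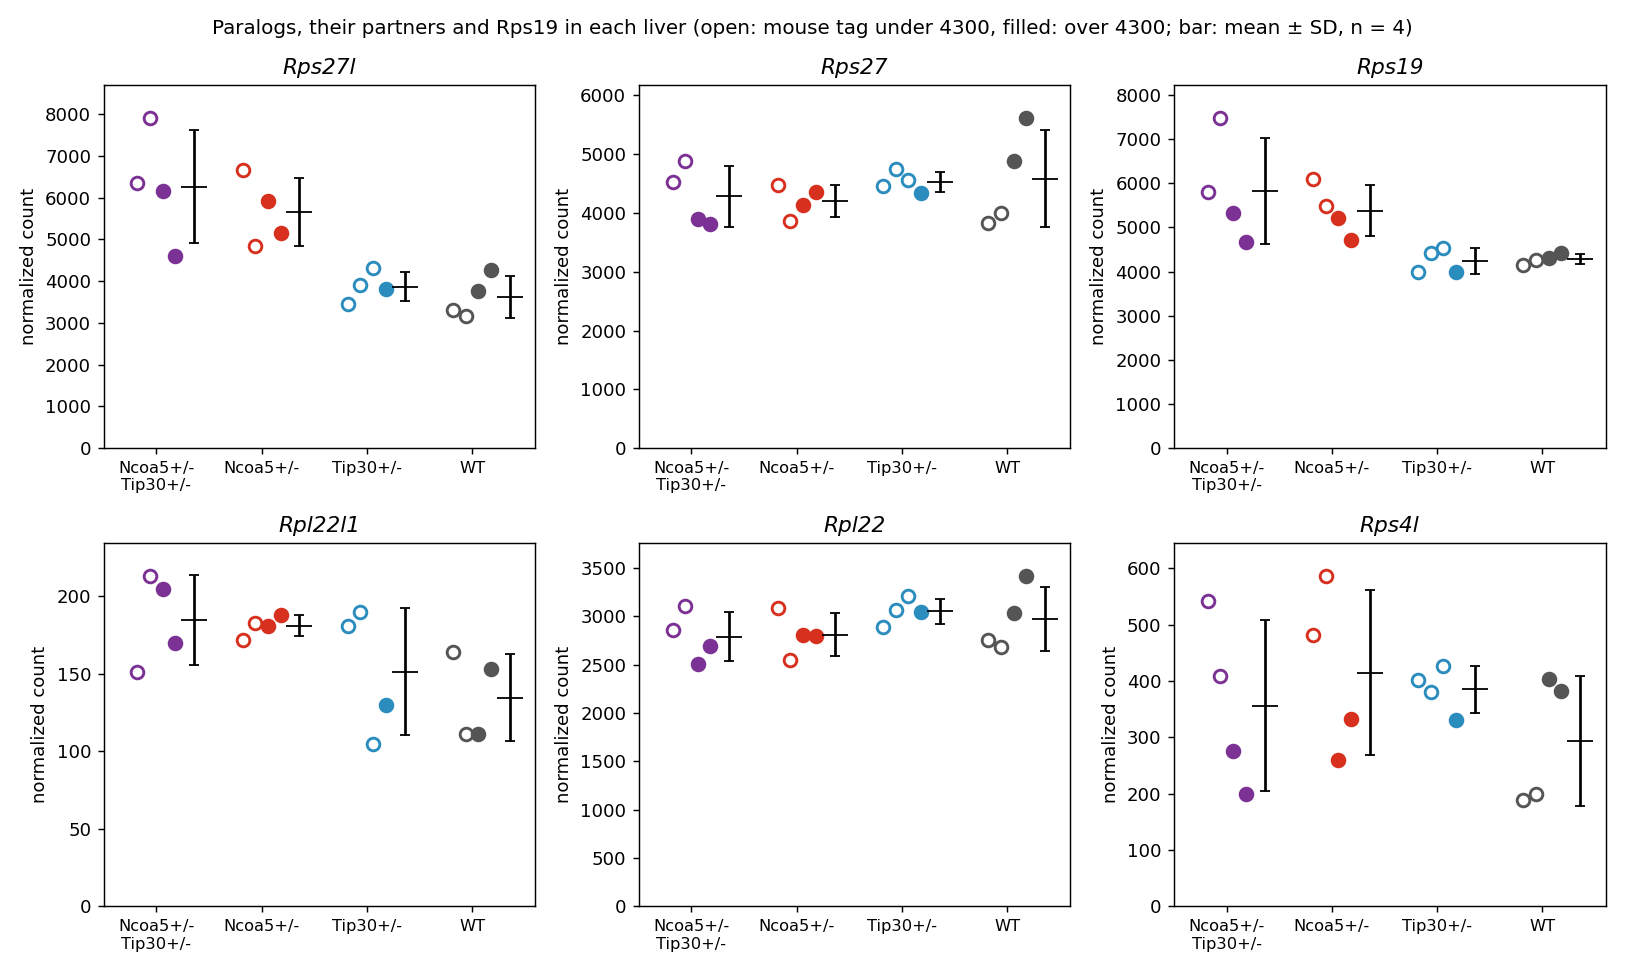
Normalized counts of Rps27l, its partner Rps27, Rps19, Rpl22l1, its partner Rpl22, and Rps4l, 1 point per liver, with mean ± SD (n = 4). Open points are mice with tags under 4300. For Rps27l and Rps19 all 8 livers with an Ncoa5 deletion lie above all 8 others.

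Rpl22l1, a paralog of the large-subunit protein Rpl22, was far less abundant. It had 151, 213, 205 and 170 counts in Ncoa5+/-Tip30+/- livers and 172, 183, 181 and 188 in Ncoa5+/- livers. Tip30+/- livers had 181, 190, 105 and 130, and WT livers 164, 111, 111 and 153. Only the Ncoa5+/- livers lay wholly above the WT livers. No change passed: the log2 change was 0.46 ± 0.19 in Ncoa5+/-Tip30+/- livers (adjusted p = 0.170, limma), 0.44 ± 0.19 in Ncoa5+/- livers (adjusted p = 0.418) and 0.38 ± 0.14 over the 8 livers against 8 (adjusted p = 0.0891). Rpl22 itself had log2 changes of -0.09 ± 0.10 and -0.08 ± 0.10 in the first 2 comparisons.

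Rps4l, an autosomal relative of Rps4x listed as a transcribed processed pseudogene, was the most variable paralog above 100 counts. It had 542, 409, 276 and 199 counts in Ncoa5+/-Tip30+/- livers, 482, 586, 259 and 333 in Ncoa5+/- livers and 402, 381, 427 and 330 in Tip30+/- livers. WT livers had 189, 199, 403 and 382. WT livers 1 and 2, the low pair, are also the WT mice with tags under 4300 and with 19.4 and 26.3 counts of Zhx2, a transcriptional repressor gene, against 438 and 204 in the other pair. Ncoa5+/- livers 1 and 4 were as low in Zhx2, at 13.5 and 8.77, with 482 and 333 counts of Rps4l. Within the lower tags all 3 mutant groups exceeded this low pair of WT livers. The log2 changes were 1.28, 1.45 and 1.05 in Ncoa5+/-Tip30+/-, Ncoa5+/- and Tip30+/- livers (adjusted p = 0.00435, 0.0202 and 0.0121 in limma). Over both tag ranges but without the 4 livers low in Zhx2, the changes were -0.24, -0.01 and -0.04 in the same order. Within the higher tags the changes were -0.74, -0.42 and -0.25 and none passed, and the fit over all livers called none.

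The remaining paralogs had no call. Rpl7l1, which takes part in ribosome assembly, averaged 2389 counts with a log2 change of -0.19 ± 0.11 in Ncoa5+/-Tip30+/- livers. Rpl32l, listed as a processed pseudogene, averaged 10.6 counts, at the edge of the minimum.

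Among small-subunit genes, only Rps19 passed in the limma fit over all livers. Rps19 (ENSMUSG00000040952, chromosome 7, 24884371 to 24889806, plus strand) is needed to mature the small subunit and is the gene most often mutated in human Diamond-Blackfan anaemia. Its counts were 5805, 7477, 5319 and 4667 in Ncoa5+/-Tip30+/- livers, against 4159, 4257, 4306 and 4416 in WT livers. They were 6098, 5486, 5203 and 4708 in Ncoa5+/- livers and 3983, 4424, 4541 and 3979 in Tip30+/- livers. The lowest of the 8 livers with an Ncoa5 deletion had 4667 and the highest of the 8 others 4541, a narrow gap beside the spread among the mutant livers. Over the 8 livers against 8, Rps19 rose 1.30-fold (log2 0.38 ± 0.09, limma adjusted p = 0.0154). In the single comparisons the log2 change was 0.42 ± 0.12 in Ncoa5+/-Tip30+/- livers (adjusted p = 0.0703), 0.32 ± 0.12 in Ncoa5+/- livers (adjusted p = 0.352) and -0.02 ± 0.12 in Tip30+/- livers (adjusted p = 0.982). The 8-against-8 call was lost within the higher tags (log2 0.25, adjusted p = 0.230) and without the 4 livers low in Zhx2 (log2 0.37, adjusted p = 0.0772).

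Other small-subunit genes with known side roles did not pass. Rps6, the substrate of S6 kinase, had a log2 change of -0.12 ± 0.12 in Ncoa5+/-Tip30+/- livers, -0.06 ± 0.12 in Ncoa5+/- livers and -0.20 ± 0.12 in Tip30+/- livers. Rpsa, also known as a laminin receptor precursor, had 0.06 ± 0.15, -0.12 ± 0.15 and -0.17 ± 0.15. Rps3a1 had the lowest value of the small subunit in Ncoa5+/-Tip30+/- livers, at -0.21 ± 0.11, and Rps2 had -0.15 ± 0.13 in Ncoa5+/- livers.

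In the large subunit no gene passed in the limma fit over all livers. Rpl19 came nearest, with 2208, 2605, 2173 and 2009 counts in Ncoa5+/-Tip30+/- livers, against 1655, 1403, 1949 and 1997 in WT livers. These groups did not overlap, but the gap of the closest pair was 2009 against 1997, and the log2 change of 0.37 ± 0.13 had an adjusted p of 0.110. Rpl5 and Rpl11, the partners of 5S rRNA, had log2 changes of -0.19 ± 0.11 and 0.11 ± 0.11 in Ncoa5+/-Tip30+/- livers and -0.16 ± 0.11 and -0.03 ± 0.11 in Ncoa5+/- livers. Rpl3, which reaches towards the peptidyl transferase centre, had -0.13 ± 0.11 and 0.00 ± 0.11. Rpl24, with 10.2 counts on average, stood at 0.64 ± 0.46 and Rpl13a at -0.42 ± 0.19 in Tip30+/- livers, and Rpl23a at -0.28 ± 0.26 in Ncoa5+/-Tip30+/- livers. Rpl21, with 5187 counts on average, had -0.36 ± 0.18 in Ncoa5+/- livers.

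The stalk genes, whose products recruit translation factors to the ribosome, had log2 changes below 0 in all 3 comparisons over all livers, and none passed. Within the lower tags Rplp1 and Rplp2 turned to 0.06 and 0.20 in Ncoa5+/-Tip30+/- livers, and Rplp0 and Rplp2 to 0.06 and 0.14 in Ncoa5+/- livers. Rplp0 had 8051, 9201, 9012 and 8401 counts in Tip30+/- livers, against 9665, 11971, 11011 and 9846 in WT livers, and the groups did not overlap. Its log2 change was -0.29 ± 0.14 (limma adjusted p = 0.680). Rplp1 had 10803, 12078, 12990 and 11315 counts in Tip30+/- livers, against 13217, 13828, 13965 and 13427 in WT livers, again without overlap, and a log2 change of -0.21 ± 0.11 (adjusted p = 0.727). Rplp2 had -0.16 ± 0.11 in that comparison. In Ncoa5+/-Tip30+/- livers the 3 genes had -0.22 ± 0.14, -0.09 ± 0.11 and -0.08 ± 0.11.

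**Figure D4:**
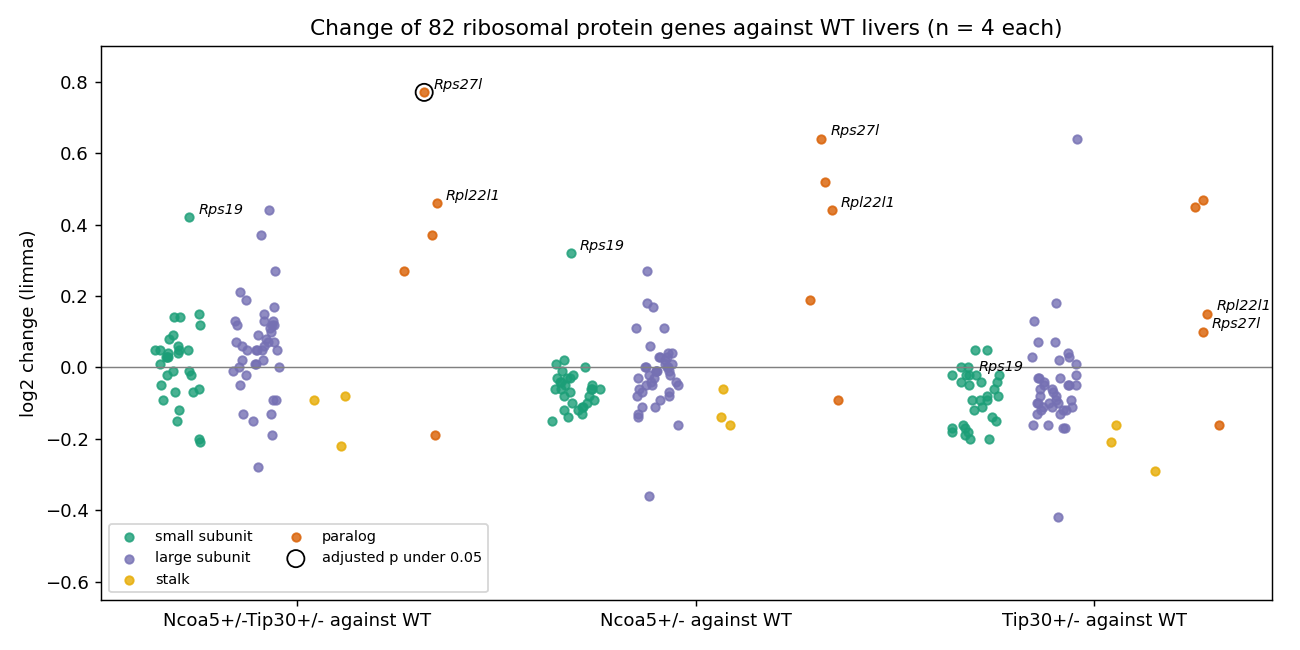
Log2 change of each of the 82 genes against WT livers in 3 comparisons (limma, n = 4 livers per group), coloured by role. The ring marks Rps27l in Ncoa5+/-Tip30+/- livers, at 0.77, the only gene with an adjusted p under 0.05 among these comparisons.

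Counted over all 82 genes, few passed in any comparison. In Ncoa5+/-Tip30+/- livers against WT livers 1 of 82 passed in limma (Rps27l), against 2.67% of all 15263 genes, and 4 of 82 had an unadjusted p under 0.05, against 22% of all genes. In Ncoa5+/- livers 0 of 82 passed, against 0.557% of all genes, with 3 at an unadjusted p under 0.05, against 10.2%. DESeq2 called 1 there (Rps27l), and edgeR and limma-voom called 0. In Tip30+/- livers 0 of 82 passed, against 0.0131% of all genes, with 2 at an unadjusted p under 0.05, against 7.34%, and 0 by DESeq2, edgeR and limma-voom. Over the 8 livers with an Ncoa5 deletion against the 8 without, 2 of 82 passed (Rps27l and Rps19, 2.44%), against 7.89% of all genes, with 5 at an unadjusted p under 0.05, against 26.1%. The unadjusted count of members was 11 with upper-quartile and 29 with total-read scaling. The share of all genes at that threshold was counted in the main fit only, so these 2 counts have no background. Under total-read scaling 4 members passed, against 7.19% of all genes, and 79 of 82 were above 0, with the median of all genes at 0.09. Over the 8 livers with a Tip30 deletion against the 8 without, 0 of 82 passed, against 0.131% of all genes, and 0 had an unadjusted p under 0.05, against 11.8%, with 0 calls by DESeq2, edgeR and limma-voom.

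The share of members whose groups did not overlap was below that of all genes in some comparisons and above it in others. Ncoa5+/-Tip30+/- and WT livers did not overlap for 3 of 82 members (Rpl19, Rps27l and Rps19, 3.66%), against 10.7% of all genes. Ncoa5+/- and WT livers did not overlap for 3 (Rps27l, Rpl22l1 and Rps19, 3.66%), against 5.67%. Tip30+/- and WT livers did not overlap for 4 (Rpl13, Rplp1, Rplp0 and Rps13, 4.88%), against 4.44%, a like share. For the 8 livers against 8 by Ncoa5 it was 2 (Rps27l and Rps19, 2.44%), against 1.05% of all genes, and by Tip30 it was 0, against 0.0852%.

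The sizes of change were small. Log2 changes lay within 0.2 of 0 for 70 of 82 members in Ncoa5+/-Tip30+/- livers, against 46.6% of all genes. The same held for 76 of 82 in Ncoa5+/- livers, against 61.0%, and for 75 of 82 in Tip30+/- livers, against 63.0%. The median change was 0.05, -0.04 and -0.08 in these 3 comparisons, beside -0.01, -0.01 and 0.01 over all genes. With 1 mouse left out, the median ran from -0.03 (without Ncoa5+/-Tip30+/- liver 2) to 0.11 (without liver 3) in Ncoa5+/-Tip30+/- livers. It ran from -0.09 (without Ncoa5+/- liver 1) to 0.00 (without liver 4) in Ncoa5+/- livers and from -0.11 (without Tip30+/- liver 3) to -0.04 (without Tip30+/- liver 1 or WT liver 4) in Tip30+/- livers. Log2 changes were above 0 for 54, 23 and 16 of 82 members, against 48.7%, 47.5% and 52.3% of all genes. They were above 0 for 57 over the 8 livers against 8 by Ncoa5, against 48.3%, and for 44 by Tip30, against 50%. Scaled to total reads, the 3 medians were 0.13, 0.02 and -0.15, beside 0.07, 0.04 and -0.06 over all genes, so the sign for Ncoa5+/- livers depended on the scaling. The median half-width of a member's unadjusted 95% interval was 0.25, so changes under that size could not be told from 0. After adjustment over all genes, larger changes also failed to pass, such as 0.64 for Rps27l in Ncoa5+/- livers (limma adjusted p = 0.0693). Members varied slightly less within groups than other abundant genes: the median SD on the log2 scale was 0.158 for 75 members with a mean of at least 1000, against 0.181 for all 3888 such genes.

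The median over members was lower within the higher tags than within the lower ones in all 3 mutant groups. In Ncoa5+/-Tip30+/- livers it was 0.27 among mice with tags under 4300 and -0.18 among those with higher tags. There 71 and 9 of 82 members were above WT livers, and the median over all genes was -0.02 in both ranges. In Ncoa5+/- livers the median over members was 0.11 and -0.18, and in Tip30+/- livers 0.01 and -0.18. All 3 higher-tag values are set against the same 2 WT livers. Ncoa5+/-Tip30+/- and Ncoa5+/- mice number 2 in each range, Tip30+/- mice 3 and 1, WT mice 2 and 2. Whether the tags stand for litters, cages or dates cannot be told from the labels.

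**Figure D5:**
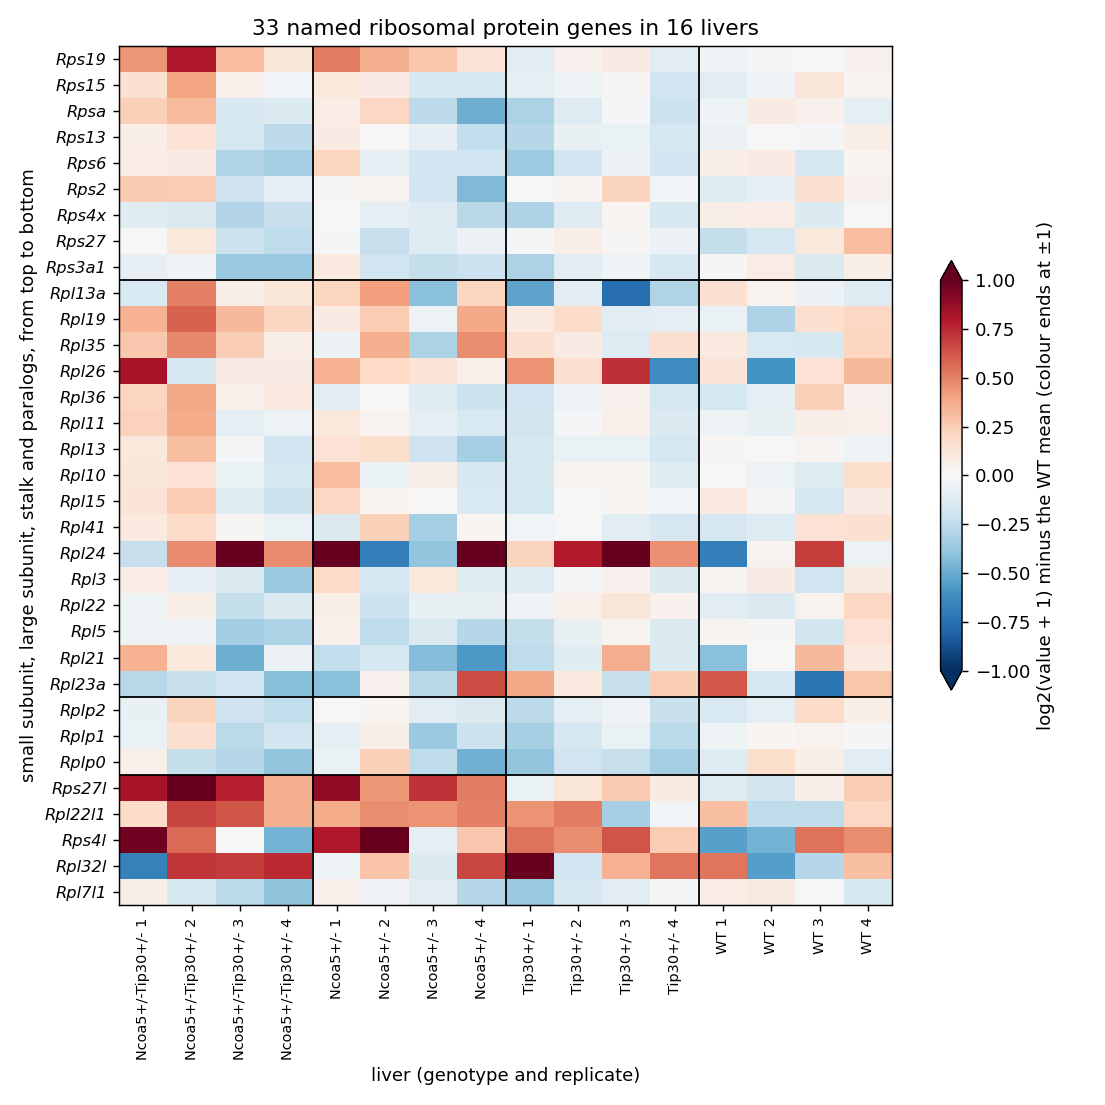
Log2(value + 1) minus the WT mean for the 33 of the 82 genes named in the text (rows, by role) in each of the 16 livers (columns). Most rows are warm in Ncoa5+/-Tip30+/- livers 1 and 2, whose medians over all 82 genes were 0.14 and 0.28, and cool in livers 3 and 4, at -0.13 and -0.12. Rps27l and Rps19 stay warm across both groups with an Ncoa5 deletion.

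For the interaction, the double deletion minus both single deletions plus WT, 0 of 82 members passed in limma, as did 0% of all genes. At an unadjusted p under 0.05 there was 1 member (Rpl36, log2 0.40 ± 0.15), against 4.26% of all genes, and DESeq2, edgeR and limma-voom called 0 members. The unadjusted count of members was 4 with DESeq2, 5 with edgeR, limma-voom, TMM or upper-quartile scaling, and 16 with total-read scaling. The share of all genes was not counted in these settings, so these counts have no background. The value was above 0 for 70 of 82 members, against 45.4% of all genes, with a median of 0.15 beside -0.03 over all genes. The median was 0.06 without Ncoa5+/-Tip30+/- liver 2 and 0.22 without Ncoa5+/-Tip30+/- liver 4, the ends of its range with 1 mouse left out. Its largest values were Rpl13a at 0.45, Rpl36 at 0.40 and Rpl21 at 0.37, and its lowest Rps4l at -0.72.

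Ribosomal protein genes outside the symbol rule were examined as well. Rack1, Fau, Rpl36al and Rps27rt did not pass in any of the 3 comparisons with WT, by limma, DESeq2, edgeR or limma-voom, and 0 of these 4 genes had an unadjusted p under 0.05 there. Rack1, a scaffold on the small subunit, had log2 changes of -0.05 ± 0.11 in Ncoa5+/-Tip30+/- livers and -0.06 ± 0.11 in Ncoa5+/- livers. Fau, which encodes a ubiquitin-like protein fused to a small-subunit protein, had 0.20 ± 0.13 and -0.04 ± 0.13.

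Other genes of the translation machinery are given by list. In Ncoa5+/-Tip30+/- livers, 2.67% of all genes passed and 22% had an unadjusted p under 0.05, and over the 8 livers with an Ncoa5 deletion against 8 the shares were 7.89% and 26.1%. Of 19 translation factors known for 5′ TOP mRNAs, such as elongation factors and poly(A)-binding protein, 0 passed in Ncoa5+/-Tip30+/- livers by any of the 4 tools, with 1 at an unadjusted p under 0.05 (Nap1l1, log2 -0.33 ± 0.12, limma adjusted p = 0.111). Of 28 initiation factors 0 passed there by any of the 4 tools, with 8 at an unadjusted p under 0.05. Over the 8 livers with an Ncoa5 deletion against 8, Eif1ax, which helps scan for the start codon, fell by 0.24 on the log2 scale (SE 0.07, limma adjusted p = 0.0471). DESeq2 called 2 genes of that list, and edgeR and limma-voom 0. Of 46 ribosome biogenesis factors 0 passed in Ncoa5+/-Tip30+/- livers by any of the 4 tools, with 8 at an unadjusted p under 0.05. Ddx10, a helicase of ribosome assembly, fell over the 8 livers against 8 (log2 -0.35 ± 0.10, limma adjusted p = 0.0423), where DESeq2 called 3 genes of the list, limma-voom 1 and edgeR 0. So did Polr3g, a subunit of RNA polymerase III (log2 -0.36 ± 0.09, adjusted p = 0.0255), 1 of 27 genes of the polymerase I and III machinery. Of that list, 0 passed in limma, edgeR or limma-voom in Ncoa5+/-Tip30+/- livers and 2 in DESeq2, with 5 at an unadjusted p under 0.05. Of 12 tested genes of the MYC network, 0 passed in limma, edgeR or limma-voom in Ncoa5+/-Tip30+/- livers and 1 in DESeq2, with 3 at an unadjusted p under 0.05.

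Upstream of 5′ TOP translation, the mTORC1 list held 26 tested genes, and most had no call. In limma 2 passed in Ncoa5+/-Tip30+/- livers and 1 in Ncoa5+/- livers, against 2.67% and 0.557% of all genes. Over the 8 livers with an Ncoa5 deletion against 8, 2 rose and 2 fell, against 7.89%. DESeq2 called 5, 2 and 4 of the list in these 3 comparisons. The list's median log2 change was -0.03, -0.03 and -0.08. Ddit4, an mTORC1 inhibitor, averaged 391 counts in Ncoa5+/-Tip30+/- livers, where it rose, and 206 in WT livers (log2 0.92 ± 0.22, limma adjusted p = 0.0343). Sesn2, another inhibitor, averaged 724 counts in Ncoa5+/-Tip30+/- livers and 794 in Ncoa5+/- livers, against 341 in WT livers. It rose in both (log2 1.04 ± 0.25 and 1.18 ± 0.25, adjusted p = 0.0343 and 0.0396), but limma-voom called no gene of this list in Ncoa5+/- livers. Its relatives Sesn1 and Sesn3 fell over the 8 livers with an Ncoa5 deletion against the 8 without (log2 -0.45 ± 0.11 and -0.59 ± 0.14, adjusted p = 0.0178 and 0.0231). Of 8 tested snoRNA host genes, Snhg15 alone passed in limma in Ncoa5+/-Tip30+/- livers and in Ncoa5+/- livers. It rose in the former (192 against 37.9 counts, log2 2.27 ± 0.30, adjusted p = 0.000495) and in the latter (166 counts, log2 2.11 ± 0.30, adjusted p = 0.00160).

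The p53 list moved with the Ncoa5 deletion, as Rps27l did. Of its 11 tested genes 9 rose in Ncoa5+/-Tip30+/- livers, against 2.67% of all genes called, and 9 in Ncoa5+/- livers (8 with limma-voom), against 0.557%, and 0 passed in Tip30+/- livers by limma, DESeq2, edgeR or limma-voom, with 0 at an unadjusted p under 0.05. The list was written with earlier results of these libraries known, so its count is not independent evidence. Cdkn1a, the cell-cycle inhibitor p21, had 1233, 2666, 4893 and 1006 counts in Ncoa5+/-Tip30+/- livers and 3382, 1434, 1785 and 2244 in Ncoa5+/- livers. It had 49.2 to 70.3 counts in Tip30+/- livers and 62.7 to 130 in WT livers. Mdm2, to which Rpl5 and Rpl11 bind, averaged 1408 counts in Ncoa5+/-Tip30+/- livers and 1217 in Ncoa5+/- livers, against 539 in WT livers (log2 1.35 ± 0.18 and 1.16 ± 0.18, limma adjusted p = 0.000680 and 0.00400). The receptor gene Eda2r averaged 175 counts in Ncoa5+/-Tip30+/- livers and 198 in Ncoa5+/- livers, against 6.54 in WT livers. Phlda3, an Akt inhibitor, had log2 changes of 5.01 ± 0.47 and 5.11 ± 0.47 in these comparisons. Bax, a pro-apoptotic gene, had 1.37 ± 0.16 in Ncoa5+/-Tip30+/- livers, and Ccng1, cyclin G1, had 1.77 ± 0.20 in Ncoa5+/- livers. Sesn2 belongs to this list and to the mTORC1 list. Its relatives Sesn1 and Sesn3, which fell with the Ncoa5 deletion, are on the mTORC1 list only. Trp53 itself averaged 591 counts in Ncoa5+/-Tip30+/- livers, 600 in Ncoa5+/- livers, 579 in Tip30+/- livers and 605 in WT livers.

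Some markers of other cell types were also higher with the Ncoa5 deletion. Over the 8 livers against 8, limma called 6 of 10 tested T and NK cell markers as higher. It also called 2 of 9 stellate cell and fibroblast markers, 1 of 6 cholangiocyte markers and 1 of 10 proliferation markers as higher. The share of all genes called in either direction was 7.89%, near the share of the proliferation markers. In limma, 0 of 9 hepatocyte, 0 of 12 macrophage and Kupffer and 0 of 7 B and plasma cell markers passed. The same held for 0 of 3 neutrophil, 0 of 9 sinusoidal endothelial and 0 of 5 erythroid markers. The median log2 changes of these 6 lists were -0.25, 0.40, 0.34, 0.66, 0.10 and 0.62 in that order. At an unadjusted p under 0.05 there were 3, 5, 1, 3, 1 and 2 of their markers, against 26.1% of all genes. DESeq2 called 3 of the macrophage and Kupffer markers, and 1803 of all genes. The 11 T and NK cell markers in the table summed to 168 to 337 counts in Ncoa5+/-Tip30+/- livers, 221 to 357 in Ncoa5+/- livers, 93.2 to 141 in Tip30+/- livers and 61.9 to 154 in WT livers, with none at 0 in a whole group. The 8 cholangiocyte markers summed to 1084 to 2119, 1133 to 1631, 677 to 1732 and 604 to 926 in the same order, the 9 stellate cell and fibroblast markers to 6321 to 8348, 5611 to 9410, 5865 to 6577 and 5804 to 7494, and the 10 proliferation markers to 1385 to 3263, 1623 to 6227, 1125 to 2436 and 1285 to 4102. Their part in the changes of Rps27l and Rps19 was not tested. In bulk liver, fewer cells of a type and less RNA per cell cannot be told apart.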

How the data were processed

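Liver libraries of 16 mice were read from 1 table of signal values: per the labels, the authors deposited DESeq2-normalized counts, which are reads in each gene over 1 size factor for the library. Per the submitters' processing notes, the tools were Trimmomatic 0.36, STAR 2.6.0c and DESeq2 1.28.1, with genome build GRCm38. The sources used here do not name the gene counter or the annotation release. In every library 100% of values were whole multiples of 1 step (tolerance 1e-04), so reads were recovered for count tests and for shares of reads.

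Genes with a mean of at least 10 were tested with limma 3.58.1 (trend, robust) on log2(value + 1), in 1 model of 4 group means, 2-sided, with Benjamini-Hochberg adjustment over 15263 genes within each of 6 comparisons. Folds are on this scale and understate changes of low genes. Alternatives were DESeq2 1.42.0, edgeR 4.0.16 and limma-voom on recovered reads, other pseudocounts, filters and scalings, the tag range as a covariate, and each mouse left out. The code was tested on simulated data. Each mouse is 1 library, so p-values measure the spread between mice.

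The members and the gene lists were chosen with earlier results of these data known. Named genes were members that passed, the 3 highest and 3 lowest changes per comparison, the paralogs and their partners, the stalk, Rpsa, Rps6, Rpl5, Rpl11, Rpl3, the 5 highest and lowest levels per kilobase, and up to 4 genes of each other list. Rpl13, Rps13, Rpl19, Rpl26, Rpl35, Mdm2, Trp53 and Zhx2 were named after their values were seen. Levels per kilobase use the shortest principal transcript of GENCODE M21, the source of all gene positions. Promoters are from RefSeq, GRCm38.p6, matched by gene ID for 61 of 82 members. Values of some genes are not reported here.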

Additional observations from a re-analysis of the deposited data

Results flagged for a closer look

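In 2 of 112 sets of 4 livers examined 1 liver stood far from the other 3, which chance does in about 1 set in 20. Rpl32l had 4.76 counts in Ncoa5+/-Tip30+/- liver 1, against 13.9 to 14.4 in the other 3 livers of that genotype. Rps3a1, a small-subunit gene, had 9585 counts in Ncoa5+/- liver 1, against 7579 to 7796 in the other 3.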

How the results depend on the processing

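The call of Rps27l in Ncoa5+/-Tip30+/- livers was kept in 20 of 25 alternative settings (log2 0.41 to 1.13, adjusted p 6.44e-05 to 0.331). Over the 8 livers with an Ncoa5 deletion it was kept in 31 of 32 (log2 0.47 to 0.84, adjusted p 2.25e-07 to 0.119). The call of Rps19 over those livers was kept in 30 of 32 (log2 0.25 to 0.54, adjusted p 0.000647 to 0.230). No result changed sign past its threshold. Outside the fits with 1 mouse left out, 26 named members, these 2 included, gave 14 gains and 6 losses of a call. These fits include the 1 without the 4 livers low in Zhx2. All 6 losses were of Rps27l or Rps19, the only members with a call to lose. Genes of the other lists were compared across tools only. In Ncoa5+/-Tip30+/- livers, members called numbered 2 with DESeq2, total-read scaling or the tag range as a covariate, 6 within tags under 4300 (10.6% of all genes there), and 0 within higher tags, with only 2 groups fitted, or without the 4 livers low in Zhx2. With 1 mouse left out, members called numbered 0 to 2. There were 0 without Ncoa5+/-Tip30+/- liver 2 (0.577% of all genes) or WT liver 1 (0.708%), and 2 without Ncoa5+/-Tip30+/- liver 4 (4.27%). In Ncoa5+/- livers Rps27l alone was called with DESeq2 (1.68% of all genes), total-read scaling (0.609%) or values relative to the member median (0.524%). The same held with no filter, where 89 of all genes were called. Within tags under 4300 Rps4l alone was called there (0.0655% of all genes). In Tip30+/- livers the number of members called was 1 within tags under 4300 (Rps4l, against 2.92% of all genes). Over the 8 livers by Ncoa5 it was 4 with total-read scaling (7.19% of all genes) and 7 within lower tags (11.1% of all genes there). It was 1 without the livers low in Zhx2 (3.94%). Within higher tags, where there is 1 Tip30+/- liver, the log2 changes of Rps27l and Rps19 were 0.47 and 0.25. The median log2 change was 0.27 and -0.18 within lower and higher tags in Ncoa5+/-Tip30+/- livers and 0.11 and -0.18 in Ncoa5+/- livers. It was 0.01 and -0.18 in Tip30+/- livers, and 0.18 within lower tags by Ncoa5. The interaction's median was -0.03 relative to the member median, a centring that itself sets the members near 0 and moved all genes to -0.20. Mean shares with pseudogene rows were 2.10%, 1.96% and 1.76% in Ncoa5+/-Tip30+/-, Ncoa5+/- and Tip30+/- livers and 1.95% in WT livers. Without mitochondrial reads they were 1.6% in Tip30+/- livers and 1.79% in WT livers. The cause of these differences was not tested. The fits without the livers low in Zhx2 and relative to the member median were chosen after seeing the data. No paired analysis was possible because the labels' replicate numbers only follow the order of the samples. With 4 mice a group, changes under about 0.25 on the log2 scale could not be told from 0 for a typical member, even before adjustment over all genes. After adjustment, larger changes could be missed as well.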
